A study of Mus musculus with 16 samples.

Results

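The 5 genes Foxp3, Il2ra, Ikzf2, Ccr8 and Il1rl1, by which regulatory T cells are commonly recognised, were followed through 8 droplet libraries of immune cells from mouse melanomas. They were taken by symbol, as 5 of the 32285 genes listed in each count matrix, and each had at least 1 transcript in all 8 libraries. C57BL/6J mice carried subcutaneous tumours grown from 1000000 B16 melanoma cells of the Bro4.1 line, which were either control cells or B2m-null cells. The B2m protein is a part of every classical MHC class I molecule. All mice received antibody injections into the peritoneum on days 6, 9 and 12, of 100 mcg of either anti-CD40, against a receptor on antigen-presenting cells, or the rat IgG2a isotype control, and tumours were taken on day 14. The 4 groups were control tumours with isotype antibody (5 mice), control tumours with anti-CD40 (2 mice), B2m-null tumours with isotype antibody (5 mice) and B2m-null tumours with anti-CD40 (4 mice). The mouse numbers were read from hashtag antibodies, 1 per mouse, with which CD45-enriched cells were stained before the mice of a pool were mixed. The labels of the samples put the B2m genotype on the mouse and the design text puts it on the implanted cells, and groups are named here by the latter. The sources used here do not give the age of the mice or say whether the B2m-null cells are 1 clone.

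Regulatory T cells are CD4 T cells that restrain other lymphocytes, and they gather in many solid tumours. Foxp3 is the transcription factor that defines the lineage. Il2ra encodes CD25, the alpha chain that gives the IL-2 receptor its high affinity, and Ikzf2 encodes Helios, a zinc-finger factor of the Ikaros family. Ccr8 is a chemokine receptor found on regulatory T cells of tumours and skin, and Il1rl1 encodes ST2, the receptor for the alarmin IL-33, on tissue regulatory T cells, type 2 innate lymphoid cells (ILC2) and mast cells. Other cells are known to carry several of the 5 genes, so their levels are given first in every cell class and then by group.

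The 8 libraries held 116552 barcodes and 541.099 M unique molecular identifiers (UMIs, each counting 1 captured transcript), with a median of 1715 to 4225 UMIs per barcode. After filtering, 91462 cells were kept and 74503 of these were assigned to 1 of 16 mice. Assignment was poor in 1 B2m-null isotype library, with 26.1% of barcodes assigned, and 61.4% were assigned in 1 B2m-null CD40 library. From 41 to 92 barcodes were shared between any pair of libraries. The 2 control CD40 libraries are technical replicates of 1 pool. What is particular to that pool and what the antibody did in control tumours therefore cannot be told apart. The same holds for what the B2m genotype did under anti-CD40. The other groups had 2 pools each, numbered as replicates. The labels do not say how the 2 were kept apart, and mice of different pools were counted as different mice.

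Over all kept cells the matrices held 1539 UMIs of Foxp3 in 1078 cells, 9176 of Il2ra in 4559 cells and 29927 of Ikzf2 in 11889 cells. Ccr8 had 130 UMIs in 125 cells, and Il1rl1 had 3414 in 1841 cells. Ccr8 was therefore at the limit of what these libraries can show, and its values below rest on a few UMIs per mouse.

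In the genome build of the deposited files (mm10, for which GRCm38 coordinates of GENCODE vM21 are given), Foxp3 (ENSMUSG00000039521) lies on the plus strand of chromosome X from 7573644 to 7595245. Il2ra (ENSMUSG00000026770) lies on the plus strand of chromosome 2 from 11642807 to 11693193, and Ikzf2 (ENSMUSG00000025997) on the minus strand of chromosome 1 from 69531214 to 69687245. Ccr8 (ENSMUSG00000042262) spans 120092114 to 120094906 of chromosome 9 and Il1rl1 (ENSMUSG00000026069) spans 40429570 to 40465415 of chromosome 1, both on the plus strand. Foxp3 overlaps Flicr on its own strand and Ppp1r3f, Gm36995 and Ccdc22 on the other, Il2ra overlaps Gm37881, and Ikzf2 overlaps Gm29112 and Gm28112 on its own strand and Gm29114 on the other. The sources used here do not say whether counting used the strand, and reads of overlapping genes could be shared with these 3 members. Ccr8 and Il1rl1 overlapped no annotated gene.

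Sequence before the annotated starts is shown for Foxp3, the gene that defines the lineage, and for both starts of Il1rl1, because Il1rl1 was highest in classes other than T cells. The bases end just before the first annotated exon base. Capitals mark matches on either strand to 4 motifs. The letters AGATAA stand for GATA factors, which include Gata3. For forkhead factors, the family that includes Foxp3, the letters TGTTTAC were used. The RUNX factors, which work beside Foxp3, were given by TGTGGTT. STAT factors, among them the STAT5 proteins that act downstream of the IL-2 receptor, were given by TTCNNNGAA. No match here overlapped another. Sequences are from RefSeq (GRCm38.p6) on the plus strand.
Foxp3, chrX:7580233-7580482: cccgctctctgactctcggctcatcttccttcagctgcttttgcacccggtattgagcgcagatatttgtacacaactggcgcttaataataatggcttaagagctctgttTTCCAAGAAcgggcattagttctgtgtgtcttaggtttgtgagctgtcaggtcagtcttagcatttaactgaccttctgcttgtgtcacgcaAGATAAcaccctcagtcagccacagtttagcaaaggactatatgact
Il1rl1 outer start, chr1:40429320-40429569: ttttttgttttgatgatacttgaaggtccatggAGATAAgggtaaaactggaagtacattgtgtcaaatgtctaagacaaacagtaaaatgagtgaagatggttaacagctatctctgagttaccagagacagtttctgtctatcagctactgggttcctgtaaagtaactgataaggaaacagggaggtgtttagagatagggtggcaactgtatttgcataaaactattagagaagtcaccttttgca
Il1rl1 inner start, chr1:40439379-40439626: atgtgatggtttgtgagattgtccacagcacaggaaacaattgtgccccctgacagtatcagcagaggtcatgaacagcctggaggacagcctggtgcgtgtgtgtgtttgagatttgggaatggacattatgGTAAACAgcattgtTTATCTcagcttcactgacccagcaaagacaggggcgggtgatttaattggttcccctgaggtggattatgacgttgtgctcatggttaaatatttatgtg
The Foxp3 stretch, which lies inside the annotated gene, held 1 GATA match and 1 STAT match. A second Foxp3 entry of 141 bases, upstream of it on the X chromosome (7579426 to 7579566), held 0 matches to the 4 motifs and is not printed. The outer Il1rl1 stretch held 1 GATA match, and the inner stretch held 1 GATA and 1 forkhead match. Among 32851 promoters in the same table, 9.99% held the GATA letters, 3.17% the forkhead letters, 4.4% the RUNX letters and 7.02% the STAT letters. These matches are letters only, and the 3′ tags counted here do not show which start a transcript came from.

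Cells were clustered with the 5 members left out, and clusters were named from other markers. The CD4 cluster was divided again, which gave 495 cells called regulatory T-like and 1647 called CD4 T-like. The name of the regulatory T-like cells was checked against 10 markers that are not members, of which 9 were raised. The checkpoint receptor Ctla4 stood at 2404 CPM (UMIs per 1000000) in regulatory T-like cells and 561 CPM in CD4 T-like cells, Tnfrsf9 (4-1BB) at 1063 and 213 CPM, and Izumo1r (folate receptor 4) at 217 and 24.6 CPM. Ikzf4 (Eos), the Ikaros family member closest to Helios in known role, stood at 104 and 5.83 CPM. These markers served to name the cells and are no result.

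Foxp3, which neither built nor named the clusters, was at 318 CPM in regulatory T-like cells and at 12.3 CPM in CD4 T-like cells, summed over all cells. Per mouse it ranged from 195 to 494 CPM in the former (14 mice with at least 10 such cells) and from 3.96 to 117 CPM in the latter (13 mice), and the ranges did not overlap. A Foxp3 UMI was seen in 37.8% of regulatory T-like cells at a median depth of 1277 UMIs and in 0.264% of NK cells at a median of 1365 UMIs, NK cells being a class that should lack Foxp3. The next levels were those of 3 small clusters of the CD4 lineage. A cycling cluster (sub-cluster 5, 301 cells, 83.1% with an Mki67 UMI) had 144 CPM, a cluster with Ccl4, Gzma and CD8 genes (sub-cluster 7, 182 cells) had 168 CPM, and a cluster with myeloid genes (sub-cluster 9, 136 cells) had 109 CPM. The per-mouse ranges of sub-clusters 5 and 7 overlapped that of the regulatory T-like cells. The regulatory T-like cells and the cycling cluster, whose cells had a median of 4827 UMIs, each held 16.9% of all Foxp3 UMIs. Other classes held Foxp3 UMIs at lower levels by their number of cells, with 248 in cluster 6, a mixture of T cell and myeloid genes (6.97 CPM), 160 in cDC2-like cells (12.2 CPM) and 102 each in CD8 T-like and mature dendritic cells.

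Ikzf2 was the member seen in most regulatory T-like cells, with a UMI in 91.5% of them and a level of 2419 CPM. Per mouse it ran from 1292 to 3556 CPM there and from 53.5 to 1233 CPM in CD4 T-like cells, without overlap. Its level was next highest in the cycling CD4 cluster (1325 CPM) and in sub-cluster 7 (1046 CPM), whose ranges overlapped that of the regulatory T-like cells. Ikzf2 was also seen in cells outside the lineage. Cluster 13, 2678 lymphocytes led by Tcf7, Klra1 and Trdc and left without a name, had 885 CPM with a UMI in 48.4% of cells, and CD8 T-like cells had 198 CPM. Per mouse cluster 13 ran from 522 to 1630 CPM and sub-cluster 9 from 273 to 1367 CPM. Both ranges also overlapped that of the regulatory T-like cells. By their number, CD8 T-like cells held 25.6% of all Ikzf2 UMIs. Macrophages, at a median of 3962.5 UMIs per cell, had 7.46 CPM with a UMI in 3.20% of cells.

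Il2ra was at 802 CPM in regulatory T-like cells, with a UMI in 48.1% of them, and at 106 CPM in CD4 T-like cells. Its spread over mice was wide, from 198 to 1362 CPM in regulatory T-like cells and from 0 to 294 CPM in CD4 T-like cells, and the ranges overlapped. The cycling CD4 cluster (515 CPM) and ILC2 (459 CPM, with a UMI in 36.4% of 165 cells) followed, both within the range of the regulatory T-like cells. Mature dendritic cells, which are known to carry CD25, had 121 CPM with a UMI in 30.8% of 2208 cells, and held 14.3% of all Il2ra UMIs. CD8 T-like cells had 55.7 CPM, and macrophages 1.28 CPM with a UMI in 0.560% of cells.

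Il1rl1 ordered the classes differently. Mast cells and basophils stood highest at 1454 CPM (77 cells, too few in any mouse for a spread) and ILC2 next at 1073 CPM, with 633 to 1142 CPM over 4 mice and a UMI in 61.2% of cells. Fibroblasts followed at 111 CPM, regulatory T-like cells at 88.2 CPM and CD4 T-like cells at 83.9 CPM, and the ranges of these 3 classes over mice overlapped one another and lay below that of ILC2. The 924 fibroblasts, deeply sequenced and present in spite of the CD45 enrichment, held 27.4% of all Il1rl1 UMIs. Fibroblast Il1rl1 also varied by group, from 25.4 CPM in control isotype and 61.5 in B2m-null isotype to 98.4 in B2m-null CD40 and 197 in control CD40 when cells were pooled, which was not tested. Macrophages had 1.15 CPM with a UMI in 0.576% of cells.

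Ccr8 was highest in ILC2 (19.3 CPM, 5 UMIs) and regulatory T-like cells (15.9 CPM, 13 UMIs), and in every mouse it lay at or below 26.5 CPM in the latter. A Ccr8 UMI was found in 2.22% of regulatory T-like cells, 0.546% of CD4 T-like cells and 0.0155% of macrophages. It was not detected in 6 of 14 mice in the regulatory T-like cells, where a count of 0 allows up to 48.7 to 296 CPM at the depth of those mice, so absence cannot be read from these values. Foxp3 was likewise not detected in 165 ILC2, which allows up to 11.6 CPM, or in 87 gamma-delta T-like cells, which allows up to 25.7 CPM. These limits and the intervals below cover counting error only.

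**Figure D1:**
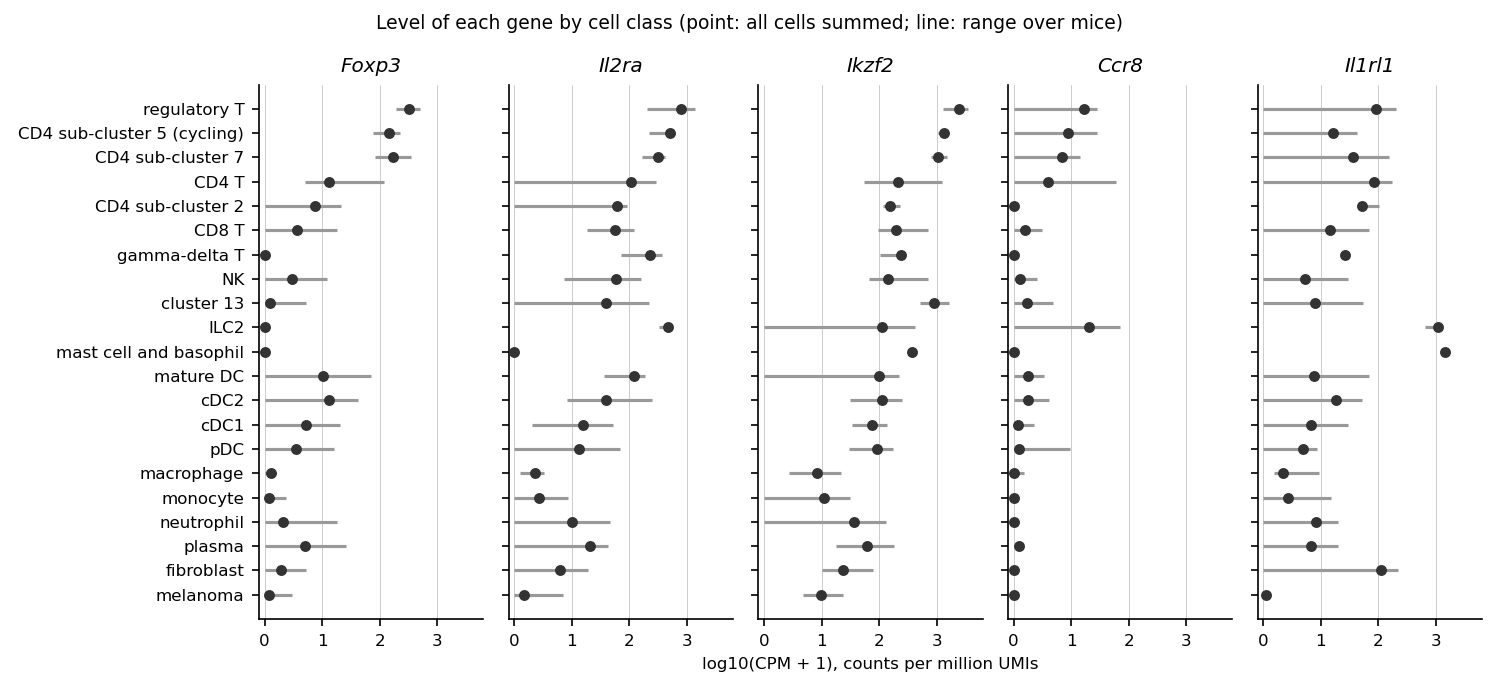
Level of each member in each cell class, as CPM of UMIs summed over all cells of the class (points, log10(CPM + 1) axis), with the range over mice having at least 10 cells of the class (lines). Foxp3 and Ikzf2 peak in regulatory T-like cells at 318 and 2419 CPM, whereas Il1rl1 peaks in mast cells and basophils at 1454 CPM.

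Genes whose levels followed each member across the 18 named classes were found by the Pearson correlation of log2(CPM + 10), as a description in which all classes share the same libraries. For Foxp3 these were Itgb8 (0.989), an integrin subunit that activates latent TGF-beta, then Fam83g (0.975), Ncmap (0.970), Frmd5 (0.969) and Gm29112 (0.968), which is annotated within Ikzf2. Il2ra was followed by Tnfrsf18 (0.936), which encodes GITR, Traf2 (0.932), Icos (0.926) and Nrip1 (0.926). Ikzf2 had weaker followers, Cdk12 (0.902), Lrba (0.892), Rhof (0.877), Supt20 (0.875) and Creb1 (0.869). Lrba is known for keeping CTLA4 from degradation. Ccr8 was followed by Pcsk1 (0.993), 9230102O04Rik (0.981), Ttc16 (0.954), Areg (0.942), which encodes the growth factor amphiregulin, and Zfp300 (0.936), on a scale that few UMIs set. Il1rl1 was followed by Arxes2 (0.944), the cytokine gene Lif (0.935), A230072C01Rik (0.928), Mpped2 (0.904) and Ephb6 (0.894).

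The members were rarely all seen in 1 cell. Of the 495 regulatory T-like cells, 21 had a UMI of none of the 5 genes, 153 of 1, 200 of 2, 104 of 3, 16 of 4 and 1 of all 5. At a median of 1277 UMIs per cell such counts describe detection and not the share of cells expressing a gene.

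The CD4 T gate, which uses no member, took cells with at least 2 UMIs over 6 T cell receptor and CD3 genes, at least 1 Cd4 UMI, no Cd8a or Cd8b1 UMI and at most 1% of UMIs from 8 myeloid genes. It held 1649 cells, of which 42.6% lay in the CD4 T-like cluster and 7.58% in the regulatory T-like cluster, with the rest spread over other clusters. Adding a Foxp3 UMI gave the regulatory T gate of 258 cells, 111 in control isotype, 7 in control CD40, 105 in B2m-null isotype and 35 in B2m-null CD40. Ikzf2 was seen in 95.7% of these cells and in 29.3% of gate cells without Foxp3, Il2ra in 70.9% and 23.2%, and Ccr8 in 5.04% and 1.01%. Il1rl1 went the other way, with 11.6% in cells with a Foxp3 UMI and 16.03% in cells without. Cells with a Foxp3 UMI were deeper, at a median of 5585.5 against 2277 UMIs, and the part of depth in these differences was not tested.

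By group, Ikzf2 was seen in 97.3% of Foxp3-bearing gate cells in control isotype, 100% of 7 cells in control CD40, 93.3% in B2m-null isotype and 97.1% in B2m-null CD40. In gate cells without a Foxp3 UMI, the Ikzf2 shares were 52.6%, 25.9%, 46.7% and 15.3% in the same order. The Ikzf2 share was thus 93.3% or above in every group among cells with a Foxp3 UMI, and among cells without one it was lower in both CD40 groups than in their isotype groups. Il2ra was seen in 73.0%, 71.4%, 77.1% and 45.7% of Foxp3-bearing gate cells and in 34.0%, 15.7%, 37.7% and 17.8% of the others. Il1rl1 was seen in 8.11%, 14.3%, 18.1% and 2.86% of Foxp3-bearing cells and in 8.10%, 16.9%, 20.8% and 17.1% of the others. Cells of 1 group come from few mice and are no replicates, so these shares carry no test.

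**Figure D2:**
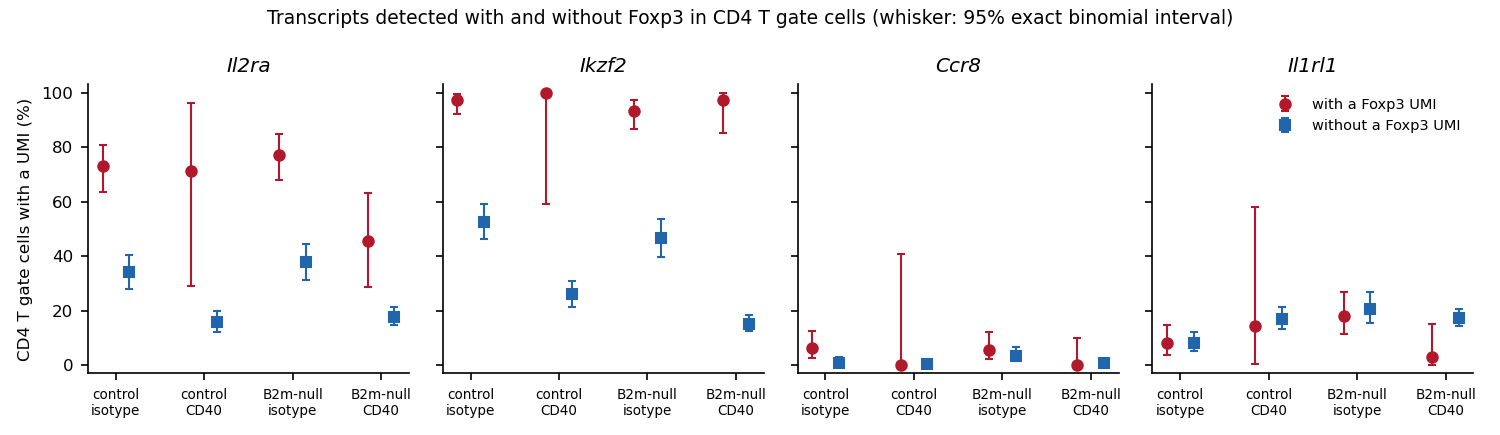
Share of CD4 T gate cells (percent) with a UMI of Il2ra, Ikzf2, Ccr8 or Il1rl1, for cells with and without a Foxp3 UMI in each group; whiskers are 95% exact binomial intervals and cover counting error only. Ikzf2 lies between 93.3% and 100% with a Foxp3 UMI in all 4 groups.

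The design asks whether anti-CD40 and the loss of B2m in the tumour cells changed the regulatory T compartment. Its share of regulatory T-like and CD4 T-like cells together was compared first. Unnamed parts of the CD4 cluster are in neither class. The largest, sub-cluster 2 (477 cells), held 7 cells in control isotype, 157 in control CD40, 7 in B2m-null isotype and 306 in B2m-null CD40. The cycling cluster held 157, 19, 92 and 33 in the same order. What leaving sub-cluster 2 out did to the CD4 T-like values and shares was not tested. Regulatory T-like cells made up 50, 38.2, 63.9, 51.6 and 46.2% of regulatory and CD4 T-like cells together in the 5 control isotype mice. They made up 9.01 and 13.3% in the 2 control CD40 mice. Both CD40 mice lay below all 5 isotype mice. In B2m-null tumours the shares were 90 (18 of 20 cells), 46.4 and 45.7% in the 3 isotype mice with at least 10 such cells, and 50 (16 of 32 cells), 19.0, 10.6 and 9.39% in the 4 CD40 mice. Here 1 CD40 mouse lay within the range of the isotype mice. The mean difference was -38.8 percentage points in control tumours (49.98 ± 9.36 to 11.2 ± 3.03, SD, n = 5 and 2; two-sided exact permutation p = 0.0476, the smallest possible, and 0.190 after Benjamini-Hochberg adjustment over 4 comparisons). It was -38.5 points in B2m-null tumours (60.7 ± 25.4 to 22.2 ± 19.0, n = 3 and 4; exact permutation p = 0.114, adjusted 0.229). The 2 genotypes differed by 10.7 points under isotype antibody (exact permutation p = 0.464) and by 11.1 points under anti-CD40 (exact permutation p = 0.6), and these comparisons share groups with the former. With groups of this size the smallest adjusted value that could be reached was 0.0571, so no difference in share could pass the adjusted threshold of 0.05. The share depends on both classes. Regulatory T-like cells were 0.848% of 22890 kept cells in control isotype, 0.268% of 25337 in control CD40, 0.547% of 22287 in B2m-null isotype and 0.530% of 20948 in B2m-null CD40, and CD4 T-like cells were 0.965%, 2.16%, 0.561% and 3.60% in the same order, given here without a test. In B2m-null tumours the pooled regulatory T-like cells were thus at nearly the same share of all kept cells with either antibody, while the pooled CD4 T-like cells were at a higher share with anti-CD40. Per mouse, CD4 T-like cells were 0 to 1.22% of kept cells in B2m-null isotype. In B2m-null CD40 they were 0.590 and 1.21% in the first pool and 6.58 and 5.41% in the second, so the groups overlapped through the first pool. In control tumours they were 0.334 to 1.38% with isotype antibody and 1.69 and 3.34% with anti-CD40, without overlap. Per mouse, regulatory T-like cells were 0.592 to 1.19% of kept cells in control isotype, 0.259 to 0.331% in control CD40, 0 to 1.06% in the 5 B2m-null isotype mice (0 of 959 cells in mouse 3, which allows up to 0.313%) and 0.283 to 0.781% in B2m-null CD40, so that the control groups did not overlap and the B2m-null groups did. Single pools moved the CD4 lineage shares. For anti-CD40 in B2m-null tumours the difference was -67.8 points without the second B2m-null isotype pool and -23.8 without the first. The difference between genotypes under isotype antibody was 40.02 and -3.93 points without these pools. Under anti-CD40 it was 23.3 points without the second B2m-null CD40 pool and -1.15 without the first. Counting the cycling cluster as regulatory gave -50.6 and -44.1 points for anti-CD40.

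**Figure D3:**
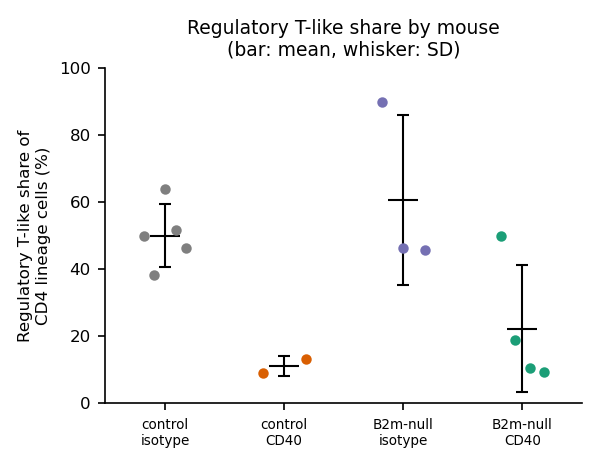
Regulatory T-like cells as a share of regulatory T-like and CD4 T-like cells together (percent), 1 point per mouse, with the mean and SD of each group. The 2 control CD40 mice sit at 9.01 and 13.3%, below all 5 control isotype mice.

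The same contrast was then read from each member in the CD4 T gate, with every cell thinned to 1500 UMIs so that shares of cells with a UMI could be compared across depths. Thinning left 258 of 337 gate cells in control isotype, 178 of 329 in control CD40, 201 of 227 in B2m-null isotype and 506 of 576 in B2m-null CD40.

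Ikzf2 was seen in 56.1, 60, 67.9, 67.2 and 55.9% of thinned gate cells in the control isotype mice and in 21.3 and 16.2% in the control CD40 mice. In B2m-null tumours its share was 53.8, 51.0 and 65.1% in isotype mice and 25, 8.89, 13.1 and 9.21% in CD40 mice. In both tumour genotypes all CD40 mice lay below all isotype mice. The mean difference was -42.6 points in control tumours (18.8 ± 3.59 against 61.4 ± 5.80%, SD, n = 2 and 5; exact permutation p = 0.0476) and -42.6 points in B2m-null tumours (14.1 ± 7.54 against 56.7 ± 7.45%, n = 4 and 3; exact permutation p = 0.0286). Each p is the smallest its design allows, and both were 0.238 after Benjamini-Hochberg adjustment over the 20 comparisons of 5 members. Without thinning the differences were -40.9 and -45.6 points, and with gate cells of the CD4 cluster alone they were -52.5 and -53.3 points. They were smaller with cells thinned to 500 UMIs (-20.8 and -21.6 points) and with no Cd4 UMI required (-21.1 and -25.6 points).

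Foxp3 was seen in 5.26, 16, 17.9, 23.4 and 11.9% of thinned gate cells in the control isotype mice and in 3.28 and 0.855% in the control CD40 mice. In B2m-null tumours the share was 7.69, 18.6 and 14.0% in isotype mice and 10, 2.22, 2.42 and 2.63% in CD40 mice. The control groups did not overlap, and the B2m-null groups overlapped through 1 CD40 mouse. The mean differences were -12.8 points (exact permutation p = 0.0952, adjusted 0.272) and -9.10 points (exact permutation p = 0.0857, adjusted 0.272), and without thinning they were -29.8 and -28.8 points, with no overlap in either genotype. With cells thinned to 500 UMIs they were -6.91 and -5.12 points. Without the second B2m-null isotype pool the difference in B2m-null tumours was -3.37 points.

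Il2ra was seen in 26.3, 40, 39.3, 34.4 and 18.6% of thinned gate cells in control isotype mice and in 13.1 and 17.9% in control CD40 mice, without overlap. In B2m-null tumours it was seen in 23.1, 37.2 and 34.9% in isotype mice and in 25, 24.4, 7.96 and 13.2% in CD40 mice, where the groups overlapped. The differences were -16.2 points (exact permutation p = 0.0952, adjusted 0.272) and -14.1 points (exact permutation p = 0.171, adjusted 0.429). Without thinning they were -32.2 points (exact permutation p = 0.0476, adjusted 0.119) and -23.7 points (exact permutation p = 0.0571, adjusted 0.127), and neither pair of groups overlapped. At 500 UMIs the control difference was -5.52 points. In B2m-null tumours the direction depended on the thinning, with 2.34 points at 500 UMIs and 3.88 points at 1000, and the difference there was -5.44 points without the second B2m-null isotype pool.

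Il1rl1 did not follow the other members. Its share of thinned gate cells was 1.75, 4, 3.57, 3.13 and 1.69% in control isotype mice and 14.8 and 16.2% in control CD40 mice, so that both CD40 mice lay above all isotype mice. In B2m-null tumours the share was 7.69, 11.03 and 4.65% in isotype mice and 15, 8.89, 7.96 and 7.89% in CD40 mice, with overlap. The difference for anti-CD40 was 12.7 points in control tumours (15.5 ± 1.05 against 2.83 ± 1.05%, n = 2 and 5; exact permutation p = 0.0476, adjusted 0.238) and 2.14 points in B2m-null tumours (exact permutation p = 0.429). Under isotype antibody, all 3 B2m-null mice lay above all 5 control mice, by 4.96 points in the mean (7.79 ± 3.19%; exact permutation p = 0.0179, the smallest possible, adjusted 0.238). The positive cells were 1 of 57, 2 of 50, 1 of 28, 2 of 64 and 1 of 59 in the control isotype mice. They were 1 of 13, 16 of 145 and 2 of 43 in the B2m-null isotype mice, so this order of mice rests on few cells. Whether the Il1rl1 difference for anti-CD40 itself differed between genotypes was not tested. Without thinning the control difference was 10.1 points, the B2m-null difference -1.86 points and the isotype difference 12.4 points. With cells thinned to 500 UMIs they were 3.29, -1.34 and 0.891 points, and with no Cd4 UMI required the control difference was 2.33 points. The control difference was 5.90 points without the first of the 2 control CD40 libraries and 15.4 points without the second. The B2m-null difference was 0.134 points without the first B2m-null CD40 pool and 4.15 without the second.

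Ccr8 was seen in at most 4.65% of thinned gate cells in any mouse and in none in 7 of 14 mice, where a count of 0 allows a share of up to 1.97 to 23.1%. In thinned gate cells of B2m-null tumours the Ccr8 share was 2.24 ± 2.33% in isotype and 0.346 ± 0.692% in CD40 mice (SD). These groups overlapped (n = 3 and 4, exact permutation p = 0.257, adjusted 0.514). Without thinning the shares were 5.24 ± 1.32% and 0.299 ± 0.599%, without overlap (exact permutation p = 0.0286, the smallest possible, adjusted 0.119). The positive cells were then 1 of 17, 6 of 161 and 3 of 49 in the isotype mice. They were 0 of 27, 0 of 50, 4 of 334 and 0 of 165 in the CD40 mice, so this order of mice rests on few cells. Of the 20 comparisons of thinned cells, none could pass the adjusted threshold, since the smallest adjusted value these group sizes allow was 0.0571. Of these comparisons 4 had an unadjusted exact permutation p under 0.05, of which 2 were Ikzf2 and 2 were Il1rl1. Gate shares were not compared for all genes, so neither this count nor the lack of overlap shows whether the members stand out. The gate cells came from different clusters in different groups. Those in the cycling cluster numbered 61 and 4 in control tumours with isotype antibody and anti-CD40, and 35 and 9 in B2m-null tumours. In the same order, those in the regulatory T-like cluster numbered 50, 17, 32 and 26, those in the cDC2-like dendritic cell cluster 35, 3, 48 and 6, and those in the mature dendritic cell cluster 22, 2, 26 and 1. Those in the CD4 T-like cluster went the other way, with 56, 206, 40 and 400. Gate cells in the ILC2 cluster, a class high in Il1rl1, numbered 8, 4, 16 and 6. The part of these cells in the gate shares was not tested beyond the values for the CD4 cluster alone.

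**Figure D4:**
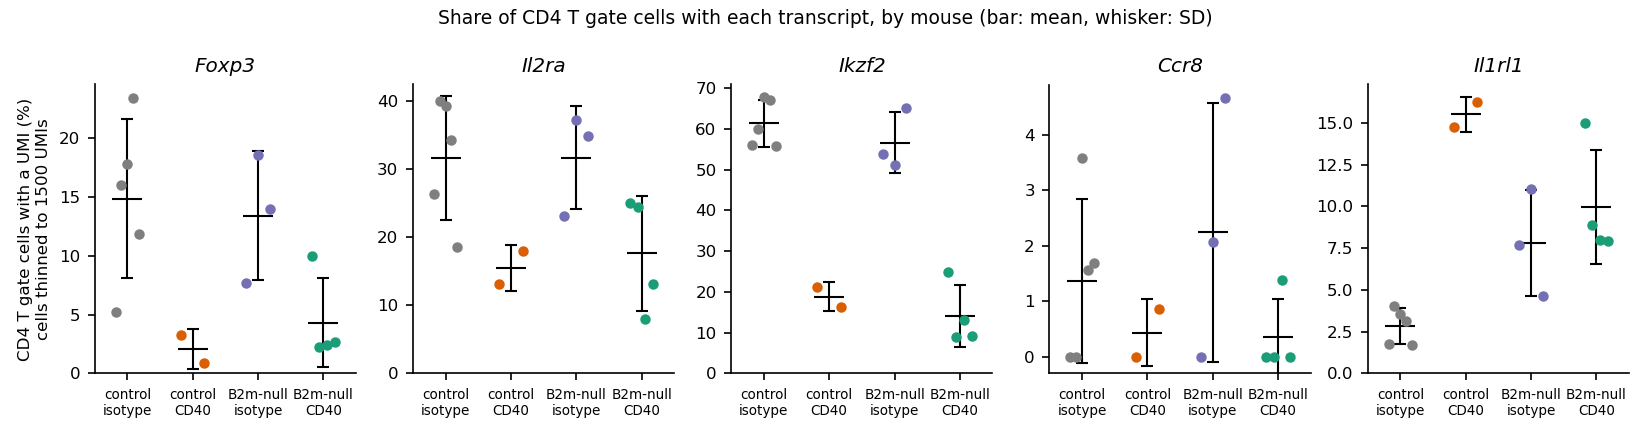
Share of CD4 T gate cells (percent, thinned to 1500 UMIs) with a UMI of each member, 1 point per mouse, with the mean and SD of each group. Ikzf2 runs from 51.0 to 67.9% in isotype mice and from 8.89 to 25% in CD40 mice, and Il1rl1 from 1.69 to 4% in control isotype and 14.8 to 16.2% in control CD40 mice.

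Within regulatory T-like cells no member passed the test for anti-CD40 or for tumour genotype. Foxp3 stood at 234, 334, 246, 315 and 369 CPM in control isotype mice, at 276 and 195 in control CD40 mice, at 462, 327 and 372 in B2m-null isotype mice and at 226, 494, 367 and 304 in B2m-null CD40 mice. The groups overlapped under anti-CD40 and isotype antibody in both genotypes. Ikzf2 stood at 3047, 2365, 3341, 2168 and 2355 CPM in control isotype mice, at 2761 and 2125 in control CD40 mice, at 3102, 2667 and 3105 in B2m-null isotype mice and at 2128, 3556, 1706 and 1292 in B2m-null CD40 mice. The highest and the 3 lowest values of the 7 B2m-null mice were those of CD40 mice. Il2ra stood at 734, 1362, 422, 731 and 966 CPM in control isotype mice, at 394 and 487 in control CD40 mice, at 198, 1067 and 1141 in B2m-null isotype mice and at 725, 889, 523 and 937 in B2m-null CD40 mice. The Il2ra groups overlapped between antibodies in both genotypes and between genotypes under isotype antibody, whereas under anti-CD40 all 4 B2m-null mice lay above both control mice. The value of 198 CPM rests on 3 UMIs in 18 cells.

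Sums per mouse were compared by edgeR's quasi-likelihood test over 1088 genes in 14 mice (23 to 49, 21 to 46, 16 to 58 and 11 to 52 cells per mouse in the order of groups above). Foxp3, Il2ra and Ikzf2 passed the filter on low counts, and Ccr8 and Il1rl1 did not. For anti-CD40 in control tumours, 0 of 3 members were called at an adjusted p of 0.05, where 2.57% of all genes tested were called. The log2 fold changes were -0.46 (SE 0.36, edgeR adjusted p = 0.682) for Foxp3, -0.89 (SE 0.37, edgeR adjusted p = 0.276) for Il2ra and -0.10 (SE 0.23, edgeR adjusted p = 0.8998) for Ikzf2. For anti-CD40 in B2m-null tumours, 0 of 3 were called, against 1.19% of all genes. There Foxp3 had -0.09 (SE 0.29), Il2ra -0.43 (SE 0.31) and Ikzf2 -0.63 (SE 0.22, edgeR adjusted p = 0.119). The unadjusted edgeR p was under 0.05 for Il2ra in control tumours (0.0205) and for Ikzf2 in B2m-null tumours (0.00604). Such a p was found for 12.3% and 16.5% of all genes tested in these contrasts. DESeq2 called 0 of the 3 members in both. The Ikzf2 difference in B2m-null tumours was the one nearest to a call. It was called with cells under 5% mitochondrial counts (-0.93, edgeR adjusted p = 0.0385). It was also called at clustering resolution 2, where CD4 clusters were not divided again (-0.57, edgeR adjusted p = 0.0183). The same held with the replicate number as a block in 3 groups (-0.72, edgeR adjusted p = 0.0460). It was called, too, without B2m-null CD40 mouse 2 (-0.85, edgeR adjusted p = 0.0151) and without the first B2m-null CD40 pool (-0.92, edgeR adjusted p = 0.0122). It was smaller, and not called, without the second B2m-null CD40 pool (-0.19, edgeR adjusted p = 0.886) and with the library as the unit (-0.27, edgeR adjusted p = 0.779).

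Between genotypes, 0 of 3 members were called under isotype antibody (0.0919% of all genes), with log2 fold changes of B2m-null against control of 0.21 for Foxp3, 0.14 for Il2ra and 0.17 for Ikzf2. Under anti-CD40, 0 of 3 were called (1.84% of all genes), with 0.58, 0.61 and -0.35. For the difference between the CD40 effects of the 2 genotypes, 0 of 3 were called (1.56% of all genes). No member had an unadjusted edgeR p under 0.05 in these 3 contrasts, beside 4.41%, 16.9% and 15.4% of all genes tested. DESeq2 called 0 members in the 2 genotype contrasts. Markers of CD8 T cells (Cd8a, Cd8b1, Gzmk and Nkg7) summed to 491 to 950 CPM in control isotype, 1183 to 1622 in control CD40, 451 to 1056 in B2m-null isotype and 889 to 2305 in B2m-null CD40, with Gzmk at 0 in all control isotype mice. The coreceptor genes Cd8a and Cd8b1 alone summed to 0 to 156, 118 to 341, 26.5 to 206 and 0 to 329 CPM in the same order. Those ranges overlapped between antibodies in both genotypes. The part of these markers in the member values was not tested.

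Ccr8 and Il1rl1 were described only. In regulatory T-like cells Il1rl1 stood at 62.5, 0, 35.2, 50.4 and 119 CPM in control isotype mice, at 78.9 and 48.7 in control CD40 mice, at 0, 199 and 79.6 in B2m-null isotype mice and at 90.6, 0, 36.7 and 25.3 in B2m-null CD40 mice. All groups overlapped. Of shares of regulatory T-like cells with a UMI, thinned to 1500 UMIs, only 1 to 4 mice per group kept at least 10 cells, and the smallest exact permutation p that the 20 comparisons allow was 0.0667, so none could pass.

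**Figure D5:**
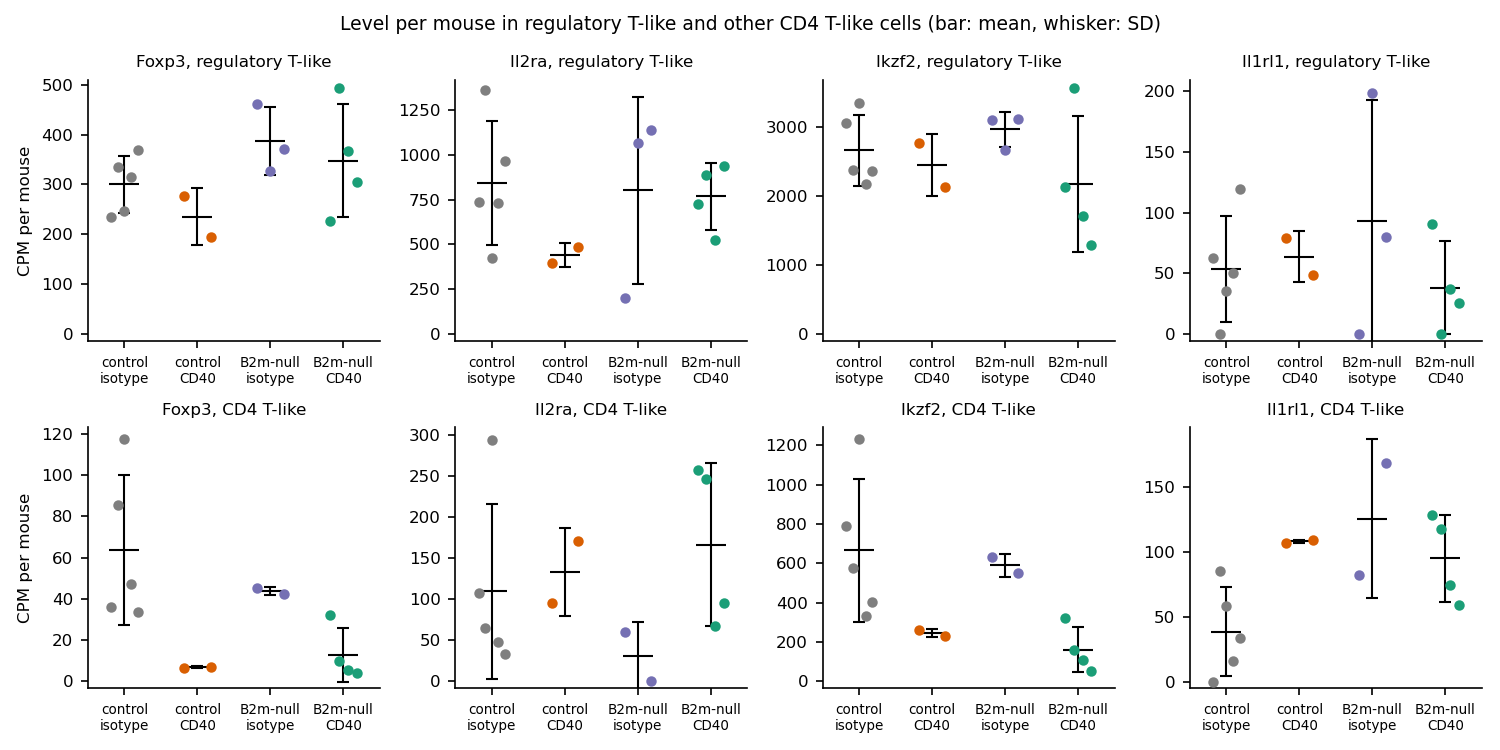
CPM of Foxp3, Il2ra, Ikzf2 and Il1rl1 per mouse in regulatory T-like and CD4 T-like cells, by group. Ikzf2 overlaps between groups in regulatory T-like cells, whereas in CD4 T-like cells the CD40 mice lie at 53.5 to 321 CPM and the isotype mice at 330 to 1233 CPM.

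In CD4 T-like cells, Ikzf2 fell under anti-CD40 in both tumour genotypes. It stood at 788, 576, 1233, 330 and 401 CPM in control isotype mice and at 259 and 229 CPM in control CD40 mice, and in B2m-null tumours at 630 and 549 CPM in the 2 isotype mice with at least 10 such cells, both of the second pool, against 321, 157, 109 and 53.5 CPM in CD40 mice. In each genotype every CD40 mouse lay below every isotype mouse. In control tumours the log2 fold change was -1.27 (SE 0.33), to 0.416 of the isotype level (edgeR adjusted p = 0.0158). In B2m-null tumours it was -2.53 (SE 0.39), to 0.173 of the isotype level (edgeR adjusted p = 0.000181). Of the 2 members tested in these cells, Ikzf2 and Il2ra, 1 was called lower in each contrast, where 8.87% and 12.1% of 1713 genes were called in either direction, and 3.91% and 5.95% lower. The CD40 effects differed by -1.26 between genotypes (SE 0.50, edgeR adjusted p = 0.230), which did not pass, with 0 of 2 members called against 1.28% of genes. Without the first B2m-null CD40 pool this difference was called (-1.49, edgeR adjusted p = 0.0403), and without the second it was -0.35 (edgeR adjusted p = 0.798). Ikzf2 was also lower in B2m-null than in control tumours under anti-CD40, a contrast in which genotype and the 1 control CD40 pool cannot be told apart. The log2 fold change was -1.18 (SE 0.34, edgeR adjusted p = 0.0288), with 1 of 2 members called, where 10.7% of genes were called and 4.73% were called lower. Under isotype antibody it was 0.09 (edgeR adjusted p = 1), with 0 of 2 members called against 0.0584% of genes.

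The fall in control tumours was not called in many alternatives. Without the first control isotype pool it was -0.61 (edgeR adjusted p = 0.485). It was about as large, but not called, without control CD40 mouse 1 (-1.32, edgeR adjusted p = 0.0981) or mouse 2 (-1.17, edgeR adjusted p = 0.230), each of which leaves 1 mouse in that group, without control isotype mouse 1 (-1.09, edgeR adjusted p = 0.0700) and without the first control CD40 library (-1.10, edgeR adjusted p = 0.0573). It was also not called with the library as the unit (-1.18), where the 2 control CD40 libraries count as 1 unit without a replicate. Neither was it called at resolution 2 (-0.65, edgeR adjusted p = 0.197) or with the members among the genes clustered on (-0.74, edgeR adjusted p = 0.0541). The same held when cells with a Foxp3 UMI were taken out (-0.95, edgeR adjusted p = 0.106). In B2m-null tumours the fall remained without cells with a Foxp3 UMI (-2.36, edgeR adjusted p = 0.00128), and of the alternatives run only the one without B2m-null isotype mouse 4 took the call away (-2.19, edgeR adjusted p = 0.138), which leaves 1 mouse in that group, assumed to vary like the others. Since both B2m-null isotype mice of this fit come from 1 pool, what is particular to that pool and the difference cannot be told apart in it, and leaving that pool out could not be fitted. With the library as the unit, where the first pool enters mostly with cells that no hashtag assigned, the fall was -2.07 (edgeR adjusted p = 5.31e-06). It was smaller without the second B2m-null CD40 pool (-1.60, edgeR adjusted p = 0.0195) and at resolution 2 (-1.35, edgeR adjusted p = 0.0138). The genotype difference under anti-CD40 was not called by DESeq2 (-0.88, adjusted p = 0.233) or with the library as the unit (-0.75). Neither was it called with cells under 5% mitochondrial counts (-0.98, edgeR adjusted p = 0.0749) or at resolution 2 (-0.65, edgeR adjusted p = 0.0933). Without the second B2m-null CD40 pool it was -0.25 (edgeR adjusted p = 0.813), and without mouse 4 of that pool -0.73 (edgeR adjusted p = 0.282). It was about as large, but not called, without mouse 3 of that pool (-1.17), without either control CD40 mouse (-1.06 and -1.19) and without the second control CD40 library (-1.06), with edgeR adjusted p from 0.0916 to 0.290.

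Other values moved with Ikzf2 in the CD4 T-like cells. Foxp3 itself stood at 35.8, 85.4, 117, 47.2 and 33.4 CPM in control isotype mice and at 6.31 and 7.04 in control CD40 mice, and in B2m-null tumours at 45.0 and 42.3 CPM in isotype mice against 32.1, 9.82, 5.33 and 3.96 in CD40 mice, each on 1 to 6 UMIs, and it did not pass the filter on low counts. Sums of the 4 CD8 T cell markers ran from 294 to 842 CPM in control isotype, 1439 to 2217 in control CD40, 211 to 443 in B2m-null isotype and 1318 to 1623 in B2m-null CD40, and none of the 4 was at 0 in all mice of a group. Cd8a and Cd8b1 alone summed to 0 to 322, 262 to 345, 42.3 to 180 and 91.7 to 257 CPM. The median depth was 921, 1210, 1215 and 2023.5 UMIs per cell. The part of these in the Ikzf2 values was not tested. The fits without Foxp3-bearing cells cannot settle the part of regulatory T cells among the CD4 T-like cells. A Foxp3 UMI was seen in 37.8% of regulatory T-like cells and an Ikzf2 UMI in 91.5%, so most such cells would stay in those fits.

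Il2ra in CD4 T-like cells stood at 107, 64.0, 294, 47.2 and 33.4 CPM in control isotype mice, at 94.7 and 171 in control CD40 mice, at 60.0 and 0 in B2m-null isotype mice and at 257, 246, 67.2 and 95.03 in B2m-null CD40 mice. The groups of B2m-null tumours did not overlap and those of control tumours did. The log2 fold change under anti-CD40 was 0.79 in control tumours (SE 0.55, edgeR adjusted p = 0.410). On leaving out a library or mouse it ran from 0.26 (without control CD40 mouse 2) to 1.75 (without the first control isotype pool). In B2m-null tumours it was 1.14 (SE 0.76, edgeR adjusted p = 0.321). Neither was called, though the latter was called without the second B2m-null CD40 pool (2.27, edgeR adjusted p = 0.0257). The direction turned at resolution 2, to -0.21 in control and -0.77 in B2m-null tumours. It also turned in B2m-null tumours with cells under 5% mitochondrial counts (-0.18). Il1rl1, which did not pass the filter on low counts, stood at 0, 85.4, 58.7, 15.7 and 33.4 CPM in control isotype mice and at 107 and 109 in control CD40 mice, both above all isotype mice. In B2m-null tumours it stood at 82.5 and 169 CPM in isotype mice and at 129, 118, 74.6 and 59.4 in CD40 mice, with overlap.

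Genes of the members' pathways were read from the same fits. In regulatory T-like cells 0 genes of any of the 6 lists were called by edgeR or DESeq2 in any contrast. Of 23 other regulatory T cell genes 13 were tested, with a median log2 fold change under anti-CD40 of -0.32 in control tumours and 0.10 in B2m-null tumours, where the medians of all genes were -0.01 and 0.01, and 1 and 0 of them had an unadjusted p under 0.05, beside 12.3% and 16.5% of all genes tested. Of the IL-2 receptor pathway 6 of 14 genes were tested (0 and 0 with such a p), of the IL-33 receptor pathway 3 of 13 (0 and 1), of the CCR8 and related chemokine axis 4 of 10 (1 and 1), of the Ikaros family 2 of 4 (0 and 0) and of Foxp3 regulators and partners 4 of 21 (0 and 0).

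In CD4 T-like cells some genes of these lists passed the test. In the IL-33 receptor list, Gata3, the transcription factor of type 2 lymphocytes and a known activator of Il1rl1, fell under anti-CD40 in both genotypes, by 1.16 on the log2 scale in control tumours (edgeR adjusted p = 0.0219) and by 1.41 in B2m-null tumours (edgeR adjusted p = 0.0142), as 1 of 3 genes tested. In the chemokine list, with 7 of 10 tested, 2 rose and 0 fell in each genotype, where 8.87% of all genes tested were called in control and 12.1% in B2m-null tumours. The tissue-homing receptor Cxcr6 was among them, with log2 fold changes of 1.71 in control tumours (edgeR adjusted p = 3.46e-05) and 2.18 in B2m-null tumours (edgeR adjusted p = 2.36e-05). The medians of the chemokine list were 0.55 and 0.67, beside -0.05 and -0.01 over all genes tested.

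Of the Foxp3 regulators and partners, with 11 of 21 tested, edgeR called 1 in each genotype. This is near the 8.87% of all genes called in control and the 12.1% in B2m-null tumours. Nfatc1, a factor downstream of the T cell receptor, rose in control tumours (1.25, edgeR adjusted p = 0.00664) and the forkhead factor Foxp1 fell in B2m-null tumours (-1.16, edgeR adjusted p = 0.0392). Of the other regulatory T cell genes, with 9 of 23 tested, edgeR called 1 in B2m-null tumours, again near the share of all genes. This was the activation receptor Tnfrsf9, which rose (1.95, edgeR adjusted p = 0.0189). Tnfrsf9 is also a marker by which the regulatory T-like cells were named, so its level here is not independent of that division. In control tumours 0 of the 9 other regulatory T cell genes tested were called by edgeR or DESeq2, and 3 had an unadjusted p under 0.05. Such a p was found for 23.9% of all genes tested in control tumours and 29.8% in B2m-null tumours. Of the IL-2 receptor pathway (8 of 14 tested) 0 were called by edgeR or DESeq2 in either genotype, with 2 and 1 at an unadjusted p under 0.05, and of the Ikaros family (2 of 4 tested) 0 were called by either tool, with 0 at such a p. DESeq2 called fewer genes of these lists in control tumours, with 1 of the chemokine list and 0 of the other 5, and in B2m-null tumours it called 2 of the chemokine list, 2 of the other regulatory T cell genes, 1 of the IL-33 receptor list and 1 of the Foxp3 regulators and partners.

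Between genotypes under anti-CD40, where 10.7% of all genes tested in CD4 T-like cells were called, 2 of 9 other regulatory T cell genes tested were higher in B2m-null tumours, Tnfrsf4 (OX40; 0.73) and Capg, an actin-capping protein (0.70). Tnfrsf4 and Capg are also markers by which the regulatory T-like cells were named, so their levels are not independent of that division. In the chemokine list 1 of 7 was higher, the receptor Cxcr3 (0.87). In the IL-2 receptor list 2 of 8 were lower, the kinase Pim1 (-0.66) and the phosphatase Ptprc, which encodes CD45 (-0.50). Of the Foxp3 regulators and partners 3 of 11 were lower, Nfatc1 (-0.74) and the receptor-induced nuclear factors Nr4a1 (-1.30) and Nr4a2 (-1.47). All 8 had an edgeR adjusted p between 0.0146 and 0.0482, and 0 of 3 and 0 of 2 genes were called in the IL-33 receptor list and the Ikaros family. DESeq2 called 1 gene of the IL-2 receptor list in this contrast and 0 of the other 5 lists. The control CD40 mice of this contrast come from 1 pool, so genotype and what is particular to that pool cannot be told apart. Under isotype antibody 0 genes of the 6 lists were called by either tool, with 3 of the other regulatory T cell genes and 0 of the other 5 lists at an unadjusted p under 0.05, beside 6.48% of all genes tested.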

How the data were processed

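Droplet 3′ libraries of CD45-enriched tumour cells, 8 in all, were deposited as matrices of UMI counts per gene and barcode, with hashtag counts in the same files, per the file headers. The submitters' processing notes name mm10, Cell Ranger 3.0.0 and bcl2fastq 2.20.0.422. The deposited counts were used as they are, and the lowest barcode total was 500 UMIs. The labels list 3 hashtags per pool, of which 2 files hold 3 and 6 files hold 2.

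A mouse was called from the hashtag highest above its background (at least 20 hashtag counts, posterior 0.9), and barcodes with a second hashtag above 2.5 SD of background were removed as doublets (9673, 8.30%). Doublets of cells from the same mouse were not removed. Cells needed 200 genes and at most 10% mitochondrial counts. Clustering (scanpy 1.11.5, leidenalg 0.10.2, 2000 variable genes less the members, 40 components, 20 neighbours, resolution 1) gave 25 clusters, named from other markers. Division of the CD4 cluster (1000 genes, 20 components, resolution 1), the thinning to 500 UMIs and the shares of all kept cells were set after seeing the data. So were the gate shares in the CD4 cluster alone and the share with the cycling cluster counted as regulatory. The fits without Foxp3-bearing cells and those of 3 groups with no block were not planned either. Mixtures such as cluster 6, 5081 cells with T cell and myeloid genes, were left unnamed, and cell class names are rebuilt here.

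Counts were summed per mouse with at least 10 cells of a class and compared in 1 fit of all groups by edgeR 4.0.16 (TMM, filterByExpr, quasi-likelihood, Benjamini-Hochberg adjustment, threshold 0.05, R 4.3.3), with DESeq2 1.42.0 as an alternative. The SE beside an edgeR log2 fold change was derived as the size of the change over the square root of its F statistic. The edgeR p was not computed from this SE, and the 2 need not match. Shares were compared by two-sided exact permutation tests over mice (scipy 1.17.1), and intervals are exact binomial at 95%. A limit for a count of 0 is 3 counts of the total. The fits were tested on counts simulated with the common dispersion alone, with changes set in control CD40 mice. In regulatory T-like cells 48 of 97 changes of 2-fold and 88 of 93 of 4-fold were recovered. In CD4 T-like cells 60 of 89 and 95 of 97 were recovered. A change of 2-fold can thus be missed.

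The genes named are the 5 members, list genes past the threshold and the 5 best followers of each member, of which some genes are not reported here. The members and lists were chosen with earlier results of these data known. The lists hold other regulatory T cell genes, the IL-2 and IL-33 receptor pathways, the CCR8 and related chemokine axis, the Ikaros family, and Foxp3 regulators and partners. The list of other regulatory T cell genes shares genes with the markers that named the regulatory T-like cells, among them Tnfrsf9, Tnfrsf4 and Capg. Promoters were matched by symbol for 4 of the 5 members, and none is shown for Ikzf2.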

Additional observations from a re-analysis of the deposited data

Results flagged for a closer look

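Among 32 sets of 4 or 5 mice examined for 1 value far from the rest, 5 held such a value. The cut-off flags about 1 in 20 sets of normally distributed values. Sparse counts are not such values, so the 5 cannot be set against chance. Where all other mice are at 0, as in both Ccr8 sets below, any mouse with a UMI is flagged. In the B2m-null CD40 group, mouse 1 had a Foxp3 UMI in 10% of thinned CD4 T gate cells (2 of 20 cells), while the other 3 mice lay between 2.22 and 2.63%. The same mouse had Il1rl1 in 15% of gate cells, while the others lay between 7.89 and 8.89%. In that group Ccr8 was seen in mouse 3 alone, in 1.38% of gate cells. In CD4 T-like cells, control isotype mouse 3 stood at 294 CPM of Il2ra (5 UMIs in 13 cells), while the other 4 mice lay between 33.4 and 107 CPM. It was also the control isotype mouse with a Ccr8 UMI in these cells, a single UMI that came to 58.7 CPM.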

How the results depend on the processing

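The shares and expression levels rest on few cells per mouse, and the 2 control CD40 mice come from 1 pool. Cells left unassigned by hashtags entered the levels by class, the counts and shares of pooled cells and the values with the library as the unit, but no value per mouse. The cause of the changes below was not tested.

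Genes called by edgeR in regulatory T-like cells numbered 28, 13, 1, 20 and 17 for anti-CD40 in control tumours, anti-CD40 in B2m-null tumours, genotype under isotype antibody, genotype under anti-CD40 and the difference of the CD40 effects. In the same order, the counts that moved by over 1.5 times were as follows. RLE size factors gave 8 and DESeq2 20 for the B2m-null contrast. Without the filter on low counts the first, B2m-null, CD40 genotype and last counts were 3, 4, 0 and 2. With at least 20 cells per mouse the last 4 counts were 5, 0, 55 and 27. With the library as the unit all 5 were 13, 24, 0, 11 and 10. A 5% mitochondrial limit gave 6 for the B2m-null contrast and 2 for isotype. Resolution 2, where the CD4 clusters were not divided again, gave 562, 532, 2, 60 and 75. Members among the genes clustered on gave 5 for the B2m-null contrast and 9 for CD40 genotype.

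In CD4 T-like cells the counts were 152, 207, 1, 184 and 22. DESeq2 gave 4 for isotype and 88 for CD40 genotype. Without the filter the last 3 were 0, 106 and 12. With at least 20 cells per mouse the B2m-null, isotype and last counts were 93, 0 and 13. With the library as the unit the first was 69 and the last 3 were 0, 17 and 5. The mitochondrial limit gave 81, 18, 91 (CD40 genotype) and 8 (last). Resolution 2 gave 349 (B2m-null), 2 and 301. Members among the genes clustered on gave 312 (B2m-null), 381 (CD40 genotype) and 68 (last). Without cells with a Foxp3 UMI the last was 9.

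The deviations of libraries with the same replicate number correlated at -0.00261 to 0.0472 between groups. Counting noise in so few cells per library also brings such a correlation near 0. It therefore cannot show whether the numbers pair the libraries. With the replicate number as a block, in the 3 groups that have it, 16 genes were called in regulatory T-like cells for anti-CD40 in B2m-null tumours and 249 in CD4 T-like cells, against 12 and 175 in the same mice with no block. For isotype the block gave 1 and 0 genes, and the same mice with no block gave 0 and 0. Under the block Ikzf2 in regulatory T-like cells was called (-0.72, edgeR adjusted p = 0.0460).

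Some member differences that were not called changed sign. In regulatory T-like cells Foxp3 under anti-CD40 in B2m-null tumours was 0.15 with at least 20 cells per mouse, 0.33 with the library as the unit and 0.077 at resolution 2, and in control tumours it was 0.040 at resolution 2. Ikzf2 there was 0.094 in control tumours with members clustered on. In CD4 T-like cells Ikzf2 between genotypes under isotype was -0.044 with DESeq2 and -0.14 with members clustered on, and Il2ra under anti-CD40 in B2m-null tumours was -0.18 with the mitochondrial limit and -0.77 at resolution 2, and in control tumours -0.21 at resolution 2. The difference of the Ikzf2 effects between genotypes was called with members clustered on (-1.79, edgeR adjusted p = 0.00779). In gate cells of B2m-null tumours Il1rl1 under anti-CD40 was -1.86 points without thinning, -1.34 at 500 UMIs, -1.74 with the library as the unit and -7.87 in the CD4 cluster alone, and Il2ra was 2.34 points at 500 UMIs and 3.88 at 1000.

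In CD4 T-like cells the second B2m-null isotype pool could not be left out, since it holds both mice of that group in the fit. Leaving out each other library or mouse in turn, and all of them in regulatory T-like cells, the counts ran from 5 to 30, 2 to 27, 0 to 2, 0 to 35 and 8 to 38 in regulatory T-like cells and from 44 to 261, 43 to 346, 0 to 5, 5 to 354 and 4 to 81 in CD4 T-like cells. Ikzf2 in CD4 T-like cells stayed below 0 for anti-CD40, from -1.65 to -0.61 in control and -2.74 to -1.60 in B2m-null tumours. Il2ra there ran from 0.73 to 7.63 in B2m-null tumours, where 7.63 (edgeR adjusted p = 0.369) leaves 1 isotype mouse with 0 Il2ra UMIs and is no measure of size. Differences whose sign changed were, in regulatory T-like cells, Ikzf2 in control tumours (-0.52 to 0.074), Foxp3 (-0.35 to 0.011) and Il2ra (-0.67 to 1.91) in B2m-null tumours, Il2ra for isotype (-2.23 to 0.37) and Ikzf2 for CD40 genotype (-0.64 to 0.14), and in CD4 T-like cells Ikzf2 for isotype (-0.35 to 0.74). The regulatory T-like share moved for anti-CD40 from -41.8 to -35.4 points in control and -67.8 to -23.8 in B2m-null tumours, and between genotypes from -3.93 to 40.02 under isotype and -1.15 to 23.3 under anti-CD40. For all gate and regulatory T-like shares 0 passed the threshold under any alternative, which says nothing of stability, since apart from the gate with no Cd4 UMI required the groups were too small for any to pass.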
